A study of Mus musculus with 6 samples.

Results

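Alad and Hdhd3 lie side by side on mouse chromosome 4, and the genes described here are this pair and 8 neighbours of theirs. The 10 genes were fixed by name, and each was read from the row of the deposited table that the array's annotation pairs with that symbol alone, which gave 10 of the 19938 genes measured. Alad and Hdhd3 were picked because both read higher in Tnc knockout, so their difference is given as a description with no test, and the 8 others were picked for their place beside them. The question was how far along the chromosome the joint difference reached. Every one of the 10 had a single row in the table, so none had to be chosen among several.

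RNA came from lumbar spinal cord of mouse embryos at E15.5 (embryonic day), with 3 samples from Tnc knockout embryos (genotype TNC -/-) and 3 from wild-type embryos, all of strain SV129, and each was hybridised to 1 whole-transcript array. They are labelled as biological replicates. The sources used here do not give litter, targeting construct or scan batch, and p-values measure the spread between these samples alone. Values are log2 expression after robust multi-array averaging (RMA), so 1 unit is a doubling, and precision is limited by having 3 arrays a group. All 10 markers fixed for spinal cord neural tissue and all 4 Hox genes fixed for the lumbar level were measured, and each read above 6.14 on every array. That value is the 95th percentile of the mean level of 1190 odorant and vomeronasal receptor genes and serves as a guide to background. Of these markers 9 of 10 neural and 4 of 4 Hox genes were higher in knockout. List means were 10.99 to 11.04 in knockout and 10.91 to 10.98 in wild type for the neural genes. All knockout arrays were above all wild-type arrays for 2 neural genes, Olig2 (log2 difference 0.24) and Snap25 (0.06), and for 0 Hox genes. Over all genes that share was 3.18%. The part of these markers in the results below was not tested. The 3 measured Y-linked genes averaged 8.20 and 7.86 in knockout replicates 1 and 3, against 4.33 in knockout replicate 2 and 4.32 to 4.48 in wild type, so sex was not balanced between the groups. The first principal component held 49.0% of the variance over all genes, with wild-type replicates 1 and 3 at its ends (scores of -18.5 and 22.8). Tnc itself, the targeted gene, read 9.64, 9.76 and 9.47 in knockout, against 10.72, 10.22 and 10.02 in wild type, a log2 difference of -0.69 (95% interval -1.09 to -0.30).

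Delta-aminolevulinate dehydratase, the product of Alad, carries out the second step of heme synthesis, joining aminolevulinate molecules into porphobilinogen. It is a cytosolic zinc enzyme that lead inhibits, and it is made in all cells, with high amounts in developing red cells and liver. Inbred mouse strains are known to differ in the number of Alad copies at this locus, and DNA was not measured here. Hdhd3 encodes a member of the haloacid dehalogenase (HAD) family of hydrolases whose substrate is not established. In gene order the 10 run Slc31a2, Slc31a1, Cdc26, Prpf4, Rnf183, Wdr31, Bspry, Hdhd3, Alad and Pole3, with the gene Fkbp15 between the first and the second.

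The sequences just upstream of the pair and of Pole3, the gene on the far side of Alad, are shown because the 3 genes follow one another on the same strand while only Hdhd3 and Alad had groups apart in the same direction. They are the 250 bases before the annotated start in RefSeq, assembly GRCm38.p6, all on the minus strand, and for Alad, which has 2 starts in that table, the outer one was taken. Capitals mark each match, on either strand, to the GC box GGGCGG, the CCAAT box, the E-box CACGTG, the GATA motif AGATAA or the TATA motif TATAAA. The windows are chr4:62502201-62502450 for Hdhd3, chr4:62520064-62520313 for Alad and chr4:62525015-62525264 for Pole3.
Hdhd3: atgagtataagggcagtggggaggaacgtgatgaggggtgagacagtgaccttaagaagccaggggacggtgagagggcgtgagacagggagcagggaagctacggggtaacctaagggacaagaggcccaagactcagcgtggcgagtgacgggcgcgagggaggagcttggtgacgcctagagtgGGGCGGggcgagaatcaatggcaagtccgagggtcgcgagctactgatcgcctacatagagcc
Alad: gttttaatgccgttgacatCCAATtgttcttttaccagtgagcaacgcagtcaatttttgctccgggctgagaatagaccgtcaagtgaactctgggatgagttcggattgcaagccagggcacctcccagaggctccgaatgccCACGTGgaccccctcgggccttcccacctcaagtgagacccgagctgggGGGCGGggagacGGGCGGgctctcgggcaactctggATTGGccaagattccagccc
Pole3: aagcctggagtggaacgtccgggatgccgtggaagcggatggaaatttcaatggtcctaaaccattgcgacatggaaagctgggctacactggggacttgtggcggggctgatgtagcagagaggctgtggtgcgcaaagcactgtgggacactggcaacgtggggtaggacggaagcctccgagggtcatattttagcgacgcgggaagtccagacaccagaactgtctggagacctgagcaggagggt
GGGCGG began at position -63 in the Hdhd3 window and at positions -56 and -44 in the Alad window, counted from the annotated start. It was present in 32.7% of the 32851 windows of this length in the table and in 6 of the 10 members, among them Bspry, Wdr31, Cdc26 and Slc31a1. The Alad window also held CCAAT at 2 places (a motif of 33.8% of windows) and CACGTG at 1 (6.02% of windows). Pole3 held none of the 5 motifs, AGATAA (9.99% of windows) and TATAAA (12.4%) were in none of the 3 windows, and GGGCGG was the only motif common to Hdhd3 and Alad. These letter matches describe the windows and say nothing about factors bound there.

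Hdhd3 read 9.08, 8.99 and 9.14 in the 3 knockout arrays, against 8.74, 8.30 and 8.05 in the 3 wild-type arrays. The groups did not overlap, and the lowest knockout array stood 0.26 above the highest wild-type array. Knockout minus wild type, the log2 difference was 0.71 (standard error 0.16, 95% interval 0.34 to 1.07). On the linear scale the knockout signal was 163% of wild type, with an interval from 127% to 211%. Intervals here come from a model fitted to all genes and are not adjusted for the number of genes.

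Alad read 11.89, 11.81 and 11.88 in knockout, against 11.66, 11.33 and 11.39 in wild type. Again no wild-type array reached a knockout array, and the gap between the groups was 0.15. Alad differed by 0.40 on the log2 scale (standard error 0.10, interval 0.17 to 0.63), and the knockout signal was 132% of wild type (113% to 155%). Among all genes Hdhd3 ranked 5 and Alad 24 by the height of the difference. Both were selected on this contrast, so these ranks describe the selection.

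The knockout arrays were close together for both genes and the wild-type arrays were spread. The SD was 0.07 in knockout and 0.35 in wild type for Hdhd3, and 0.04 in knockout and 0.18 in wild type for Alad (n = 3 each). Over all genes the median SD was 0.0861 in knockout and 0.125 in wild type, and the wild-type SD was the larger for 67.8% of genes and for 8 of the 10 members. Wild-type replicate 1 was the highest wild-type array for both genes and is also the array at the low end of the first component. Without it the difference was 0.89 for Hdhd3 and 0.50 for Alad. Without wild-type replicate 3, at the other end, the differences were 0.55 and 0.37, and with wild-type replicate 2 alone as the control they were 0.77 and 0.54.

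**Figure D1:**
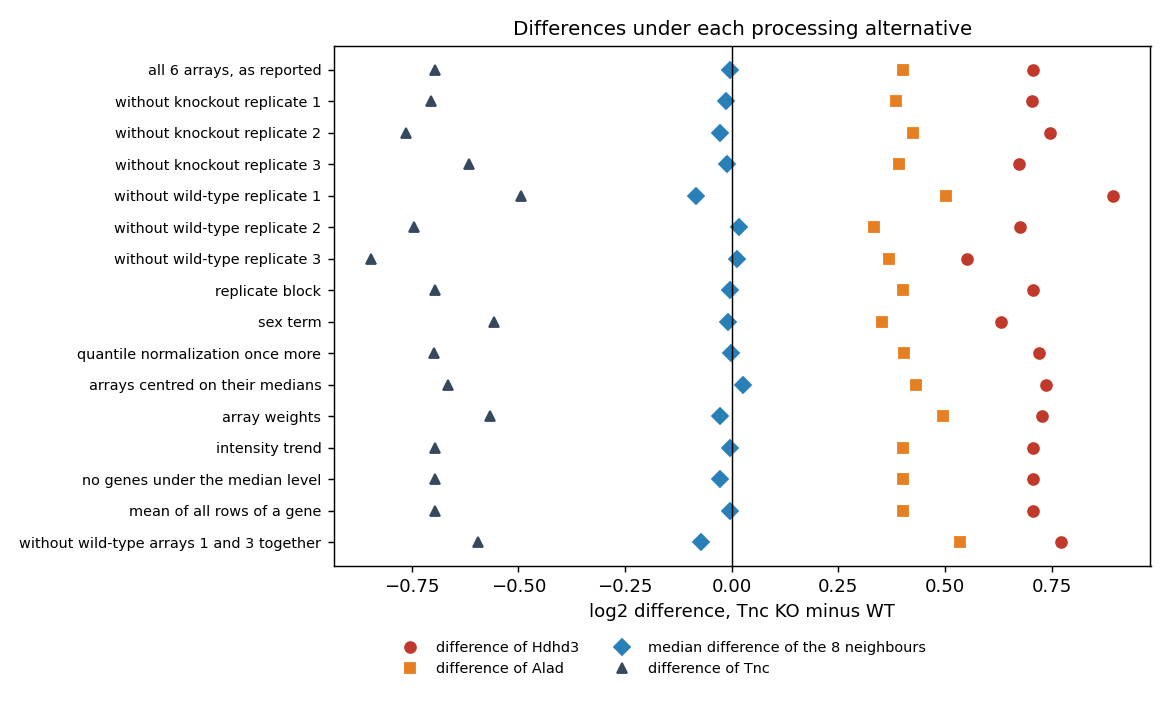
Log2 differences (knockout minus wild type, horizontal) of Hdhd3, Alad and Tnc and the median over the 8 neighbours, with all 6 arrays and under each alternative (rows), that median resting on 6 genes where dim genes were removed. Hdhd3 runs from 0.55 to 0.89, Alad from 0.33 to 0.54 and the median of the neighbours from -0.08 to 0.03.

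Knockout replicate 2, the knockout array without Y-linked signal, was the lowest of the 3 for both genes, yet lay above all wild-type arrays. A term for that signal, under which the difference rests on this 1 knockout array, gave 0.63 for Hdhd3 (standard error 0.24) and 0.35 for Alad (standard error 0.15). Developing red cells carry much Alad RNA. Of 16 erythroid markers fixed by name 8 were measured, their mean level was 6.93 to 7.10 in knockout and 6.93 to 7.15 in wild type, and 1 was higher and 7 lower. Epb42, Hbb-bh1 and Rhag, all among the lower, were under the background guide of 6.14 on every array. Alas2, the red-cell form of the first heme enzyme, read 7.997, 7.893 and 8.234 in knockout, against 8.035, 8.099 and 8.003 in wild type, with overlapping groups. In bulk tissue fewer cells of a type and less RNA per cell cannot be told apart. Endothelial markers averaged 8.82 to 9.07 in knockout and 8.66 to 8.86 in wild type. Of these 5 of 5 were higher and 2 had groups apart, beside 5.82% of all genes. Of 6 meningeal and fibroblast markers 2 were higher and 4 lower. Among them Lum, under the background guide of 6.14, had groups apart at -0.30, and Dcn at 0.38 overlapped. Markers of skeletal muscle, cartilage and dorsal root ganglion had none apart. The part of these cell types in the results was not tested.

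Bspry and Pole3 are the nearest genes on either side of the pair among those with a row of their own symbol. Rows with several symbols (1621) or unnamed here (12147) were not placed on the chromosome, so nearest, flanking and adjacent mean among the 19938 named genes. Bspry, which encodes a protein with B-box and SPRY domains, read 6.53, 6.42 and 6.36 in knockout, against 6.10, 6.40 and 6.63 in wild type. Its mean over the 6 arrays was 6.41, near the background guide of 6.14, and wild-type replicate 1 lay below that guide. The 3 knockout values lay inside the wild-type range, with a log2 difference of 0.06 and an interval from -0.24 to 0.36. It was -0.08 without wild-type replicate 1 and 0.19 without wild-type replicate 3. Pole3, a histone-fold subunit shared by DNA polymerase epsilon and a chromatin remodelling complex, read 9.10, 9.12 and 9.02 in knockout, against 9.03, 9.23 and 9.17 in wild type. Its groups overlapped, and the difference was -0.06 with an interval from -0.25 to 0.12, reaching -0.15 with wild-type replicate 2 as the only control. Both intervals included 0, and that of Bspry, with its upper bound of 0.36, overlapped the interval of Alad.

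**Figure D2:**
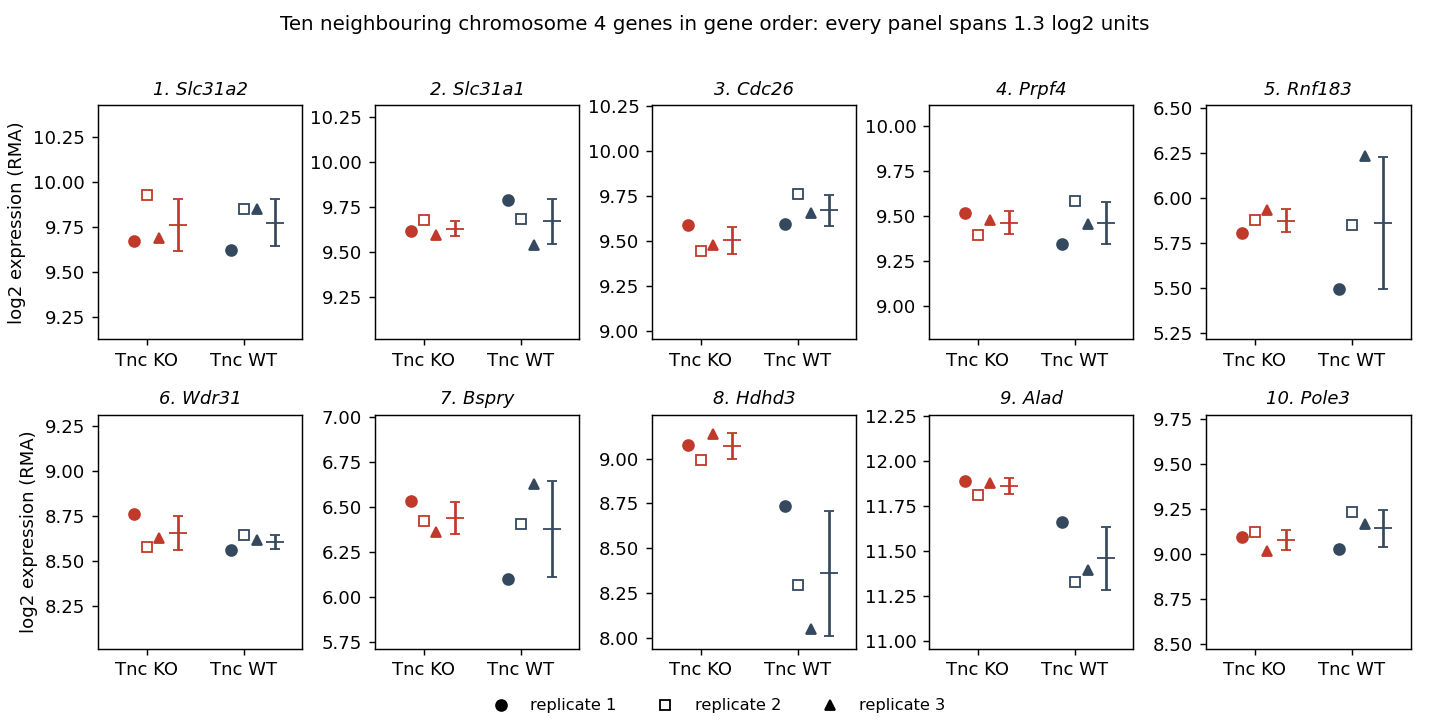
Log2 expression of the 10 genes in chromosome order, 1 panel per gene, with knockout arrays in red on the left and wild-type arrays in dark blue on the right, the marker shape giving the replicate number and the bar the mean ± SD (n = 3 each). Hdhd3 and Alad have all 3 knockout arrays above all wild-type arrays, while Bspry and Pole3 beside them overlap.

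Slc31a1 and Slc31a2 encode related copper transporters, the first the main copper importer of the plasma membrane and the second found mostly on inner membranes. Slc31a1 read 9.62, 9.68 and 9.60 in knockout, against 9.79, 9.68 and 9.54 in wild type. Slc31a2 read 9.67, 9.93 and 9.69 in knockout, against 9.62, 9.86 and 9.85 in wild type. Both overlapped between groups, with differences of -0.04 (interval -0.24 to 0.15) and -0.01 (interval -0.25 to 0.23). The sign of both small differences turned under some alternatives, for example 0.02 for Slc31a1 without wild-type replicate 1 and 0.15 for Slc31a2 with the sex term.

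Cdc26 and Prpf4 stand head to head, and only the first had groups apart. Cdc26, a small subunit of the anaphase-promoting complex, read 9.59, 9.44 and 9.48 in knockout, against 9.59, 9.76 and 9.66 in wild type. All 3 knockout arrays were below the wild-type arrays, though the highest knockout array minus the lowest wild-type array was only -0.00427. The difference was -0.17 with an interval from -0.35 to 0.02, opposite in direction to the pair, and ran from -0.27 with array weights to -0.12 without wild-type replicate 2. Prpf4, a protein of the U4/U6 particle of the spliceosome, read 9.52, 9.39 and 9.48 in knockout, against 9.34, 9.58 and 9.45 in wild type, so that the groups overlapped. Its difference was 0.00 with an interval from -0.19 to 0.20, and -0.13 with array weights.

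Rnf183 and Wdr31 lie between Prpf4 and Bspry. Rnf183, a RING-type ubiquitin ligase, read 5.81, 5.88 and 5.93 in knockout, against 5.49, 5.85 and 6.23 in wild type. Its mean in both groups was below the background guide of 6.14, so its difference of 0.01 (interval -0.37 to 0.40) says little about the transcript. It was -0.17 without wild-type replicate 1 and 0.20 without wild-type replicate 3. Wdr31, a protein with WD repeats, read 8.77, 8.58 and 8.63 in knockout, against 8.57, 8.64 and 8.62 in wild type. Its difference was 0.05, with overlapping groups and an interval from -0.13 to 0.23, and it was -0.03 with the sex term.

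Of the 8 neighbours 4 were higher and 4 lower in knockout, with a median difference of -0.0049, beside -0.0069 over all genes. The interval of each of the 8 included 0, with upper bounds from 0.02 for Cdc26 to 0.40 for Rnf183. Those of Slc31a2, Prpf4, Rnf183, Wdr31 and Bspry passed the lower bound of Alad, 0.17. With 3 arrays a group a shift of that size was thus not excluded for them. The upper bounds of Slc31a1, Cdc26 and Pole3 were also above 0, so smaller shifts in the direction of the pair were not excluded there. With limma and Benjamini-Hochberg adjustment over all genes, 0 of the 10 members passed an adjusted p of 0.05, as did 0 of all 19938 genes (0.0%), while 339 genes had an unadjusted p under that level. The groups did not overlap for 3 of the 10 members, Hdhd3 and Alad above and Cdc26 below. Of all genes 5.82% had groups apart, 3.18% with knockout above and 2.64% with knockout below, and for the pair nothing is read from that since the contrast chose it. Among the 8 neighbours that count was 1, and a difference of at least 0.3 in size was seen in 0 of the 8 and in 0.722% of all genes.

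Genes around the members were also compared. Fkbp15, an endosomal protein inside the span that is not a member, differed by 0.02 (interval -0.14 to 0.17), and its arrays read 10.060, 10.005 and 9.990 in knockout, against 9.966, 10.027 and 10.009 in wild type. Of the 12 measured genes on each side, 9 of 24 were higher and 15 lower (median -0.03), over a range from -0.21 for Ambp to 0.20 for Mup21. The interval of each of the 24 included 0, and 10 of them had a mean under the background guide. Groups were apart in 0 of the 24, beside 5.82% of all genes, a share at which 24 genes would hold few or none. The Mup and Orm genes on the flanks belong to families of near-identical copies, so their values are uncertain. The nearest genes beyond, chosen after their values were seen for groups apart and a difference of at least 0.3 in size, were Ugcg at 13 genes before the first member and Tnc at 18 genes after the last. Ugcg, the ceramide glucosyltransferase, read 11.16, 11.12 and 10.90 in knockout, against 10.68, 10.57 and 10.59 in wild type. The measured genes between Ugcg and Hdhd3, and between Alad and Tnc, thus separate the pair from the next genes that met both conditions. Among the 24 flanking genes the upper bounds reached 0.44, and 22 of the 24 were below the Alad difference of 0.40. A shift as large as that of Alad was thus not excluded for all of them.

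**Figure D3:**
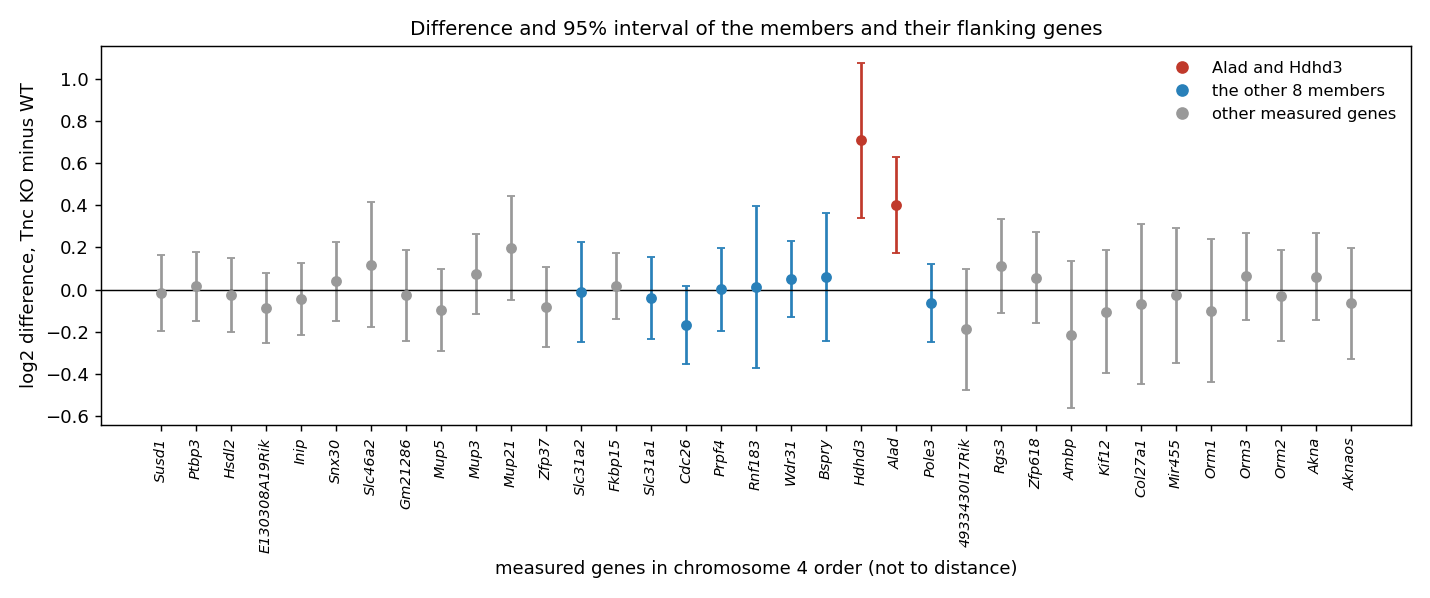
Log2 difference (knockout minus wild type) of each measured gene in chromosome 4 order, with its 95% interval from the limma fit (3 arrays per group), for Hdhd3 and Alad in red, the other 8 members in blue, and the 12 flanking genes on each side and Fkbp15 in grey. Hdhd3 at 0.71 and Alad at 0.40 are the only intervals that do not include 0. Both were picked for this difference, so their place apart from 0 describes the selection.

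On chromosome 4 as a whole, 6.80% of 1161 measured genes had groups apart, 43 with knockout above and 36 below. Over the genome 19894 pairs of measured genes were adjacent. Both genes had knockout above wild type without overlap in 24 of them, and below in 16. Of single genes 3.18% were above and 2.64% below in this way. Both differences were 0.25 or more in 3 of the 24. These were Hdhd3 with Alad, Cav2 with Cav1 on chromosome 6 (0.28 each), and Slc38a5 with Ssxb10 on chromosome X (0.28 and 0.26). Of the 16, 1 had both genes lower by at least 0.25. The pair of Hdhd3 and Alad was chosen with its difference known.

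Over the 6 arrays the Pearson correlation of Alad with Hdhd3 was 0.96, which placed Hdhd3 at rank 7 of all genes in likeness to Alad and Alad at rank 8 in likeness to Hdhd3. The group difference itself is part of that figure, and 6 genes other than Hdhd3 correlated more closely with Alad. The genes most like Hdhd3 were Sumf1 (0.99), Abcc1 (0.99) and Tmem229b (0.99), on chromosomes 6, 16 and 12. Those most like Alad were Cds1, Tmem45a and Rrp12 (0.98, 0.98 and 0.97), on chromosomes 5, 16 and 19. Over the 8 neighbours the correlation with Alad ran from -0.85 for Cdc26 to 0.26 for Wdr31, with -0.17 for Bspry and -0.77 for Pole3 at the borders.

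No other listed gene of heme metabolism had a difference as large as that of Alad, which was itself picked for its difference. Of 20 measured on the list besides Alad, 7 were higher and 13 lower, 0 passed the test, and their median was -0.01, with a range from -0.19 to 0.19. Alas1, the rate-limiting first enzyme in most tissues, read 9.82, 9.78 and 9.59 in knockout, against 9.73, 9.85 and 9.63 in wild type, with overlapping groups. The later enzymes Uros, Urod, Cpox, Ppox and Fech differed by -0.18, -0.05, -0.01, -0.19 and 0.03, and Fech, which inserts the iron, overlapped between groups as did the other 4. The groups were apart for 3 of the 20, beside 5.82% of all genes, namely the heme exporter homologue Flvcr2 (0.19) and the heme oxygenase Hmox2 (0.09) above, and the mitochondrial glycine carrier Slc25a38 (-0.11) below.

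The lists built around the other members were spread about 0. Among 11 HAD-family phosphatases besides Hdhd3, 5 were higher and 6 lower (median -0.06). Lhpp (0.17), a histidine phosphatase, had knockout above wild type, and Psph (-0.07), which makes serine, had it below. Of 18 copper genes besides the transporters, 12 were higher and 6 lower (median 0.01), none with groups apart, and the largest differences were those of the metallothioneins Mt1 (0.20) and Mt2 (0.19). Of 15 other subunits and activators of the anaphase-promoting complex, 5 were higher and 10 lower (median -0.02), none with groups apart, with Cdc20 at 0.13 and Anapc4 at -0.13. The 12 other tri-snRNP genes had a median of 0.0030 and 1 gene apart, Sart1 at 0.12. The 6 partners of Pole3 had a median of -0.03, none with groups apart, with Pole2 at -0.14 and Chrac1 at -0.05. In these 5 lists 0 genes passed the test.

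**Figure D4:**
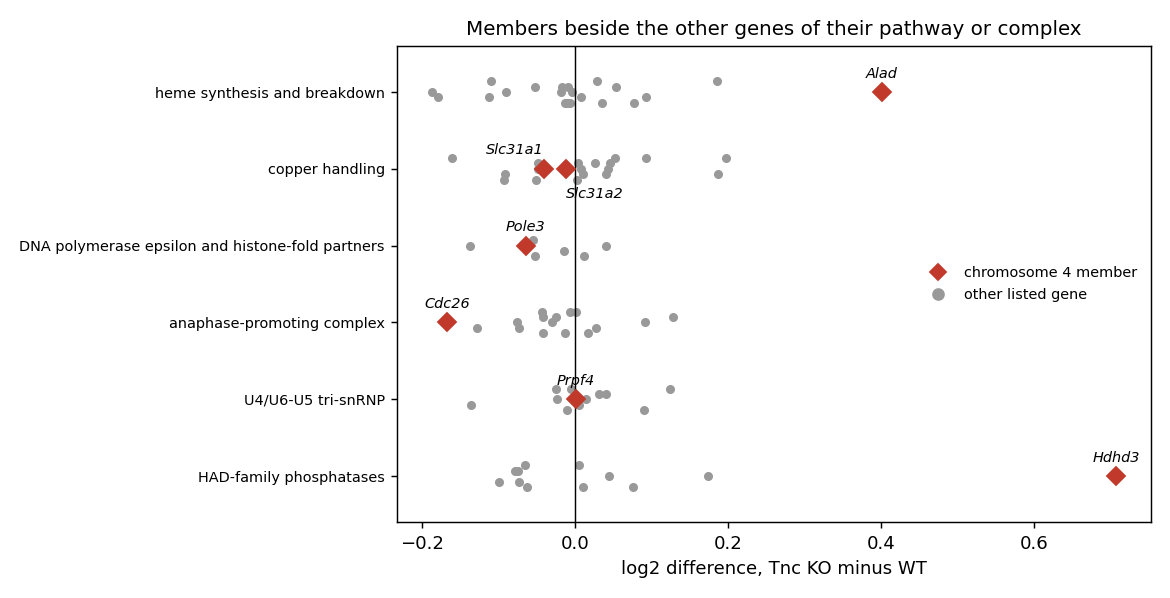
Log2 difference (knockout minus wild type, horizontal) of each measured gene in 6 lists named for a pathway, family or complex, with chromosome 4 members as red diamonds and other listed genes as grey points spread vertically only for legibility. Alad at 0.40 and Hdhd3 at 0.71 lie outside the range of the other genes of their lists, which end at 0.19 and 0.17. Both were picked for this difference, so their place outside describes the selection.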

How the data were processed

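Total RNA was measured on 6 arrays, 3 from Tnc knockout and 3 from wild-type lumbar cord. The authors deposited log2 expression values made with RMA (version not stated), per the submitters' processing notes. That method subtracts background, forces the arrays to share 1 distribution and combines probes into 1 value per transcript cluster, which compresses fold changes of dim genes. The table had 35557 rows, of which the platform annotation pairs 21789 with 1 symbol and 1621 with several, and 12147 are unnamed here. Symbols were updated by entrez identifier against RefSeq (GRCm38.p6), where 19919 of 19938 genes matched, and that table gave gene order only. For genes with several rows the row of highest mean was used.

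Groups were compared with limma 3.58.1 in R 4.3.3 (lmFit, eBayes, group as the only term), two-sided, adjusted over all genes, and the fit was tested on simulated data. The members, neighbours and gene lists were chosen with earlier results of these data known. Genes named are the members, Tnc, flanking genes, the enzymes of heme synthesis, the 3 genes most like each of the pair, and, per list, those with groups apart or else the 2 of largest difference. Upstream windows of all 10 members were matched in RefSeq. Figures were drawn with matplotlib 3.10.9.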

Additional observations from a re-analysis of the deposited data

How the results depend on the processing

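Under the 15 alternatives the differences of Hdhd3 and Alad ran from 0.55 to 0.89 and from 0.33 to 0.54. Leaving out or weighting arrays could not turn their direction, since every knockout array lay above every wild-type array. Several others, such as the replicate block and the filter on dim genes, return the same estimate by design. That both stayed positive is therefore no further evidence for the difference. Leaving out 1 array gave 0.55 to 0.89 for Hdhd3, 0.33 to 0.50 for Alad, -0.84 to -0.49 for Tnc, and -0.08 to 0.02 for the median of the 8 neighbours. That median, -0.0049 in full, turned positive under 3 alternatives, at most to 0.03 with arrays centred on their medians. Among single neighbours Cdc26 and Pole3 kept their direction under all alternatives run, and the other 6 turned under 1 to 7 of them. For Cdc26, whose groups did not overlap either, leaving out or weighting arrays could not turn the direction. That it kept its direction is therefore no further evidence. The filter on dim genes removed Rnf183 and Bspry. Without both wild-type replicates 1 and 3, an alternative chosen after seeing the data, Alad differed by 0.54. No gene passed over all genes, except 4 without knockout replicate 2 (range 0 to 4), none of them a member. Without that array every remaining knockout array had Y-linked signal and no wild-type array did. Genotype and sex therefore cannot be told apart in that alternative. Same-numbered arrays correlated at 0.35, -0.07 and 0.45 in their deviations from group means. Replicates 1 and 3 correlated best with their own number and knockout replicate 2 did not. Whether the numbers pair the samples is thus not settled. With a replicate block the standard error was 0.13 for Hdhd3 and 0.09 for Alad, against 0.16 and 0.10 without it. The replicate block left the difference of Hdhd3 at 0.71 and of Alad at 0.40, the median of the neighbours at -0.0049 and Tnc at -0.69, with 0 genes called. The 339 genes at an unadjusted p under 0.05 became 636 with the block, 220 to 1377 with 1 array left out (663 without wild-type replicate 1 and 1377 without wild-type replicate 3), 844 without both of these, 201 with the sex term, 208 without dim genes and 4181 with array weights, whose estimation stopped short of convergence.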
